A study of Vitis vinifera with 2 samples.

Results

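Peaks whose centre lay in the intron of a gene with 1 intron were taken from a chromatin immunoprecipitation sequencing (ChIP-seq) peak list of the grapevine transcription factor VlbZIP30. They were found by their annotation, which had to read intron and to number it as 1 of 1, and no measured value entered that choice. There were 741 such peaks among 49173 in the list, in 614 host genes, and they made up 10.3% of the 7190 intron peaks. The list came from leaves of Vitis vinifera plants carrying VlbZIP30 fused to 3 copies of the FLAG epitope behind the CaMV 35S promoter, a viral promoter active in most plant tissues, so binding was mapped for an overexpressed protein and not for one at its native level. All plants were 4 months old and had gone without water for 20 days. There was 1 library precipitated with anti-FLAG and 1 control library, whose antibody field names IgG and whose title calls it input. Both libraries came from transgenic, drought-stressed plants, and neither untagged nor watered plants were analysed here. The authors deposited 1 peak list with a score per peak whose scale is not named. Scores were for that reason used only within the list, by rank, by medians and by differences in the score's own units. The list's own median was 7.56.

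VlbZIP30 belongs to the basic leucine zipper (bZIP) proteins, which bind DNA as dimers, often at motifs with an ACGT core. In plants several bZIP proteins act in the response to abscisic acid, a hormone that rises in drought. Promoters are the best known place of such binding, but introns near the start of a plant gene can also carry elements that raise or direct transcription. An intron of a gene with 1 intron is both its first and its last, so it has first-intron position without further introns behind it.

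The labels and distances of the host genes did not conflict with each other. Both come from the same deposited list, so this checks how they were read and is no independent test of the gene models. All 167 exon peaks annotated to host genes were numbered as one of 2 exons, as a gene with 1 intron requires. In 136 host genes with a recovered transcription start site (TSS) and both an exon and an intron peak, exon 1, intron and exon 2 peaks followed each other along the gene, and 0 genes went against that order. The nearest TSS was that of the host gene for 673 of the 741 peaks, and all 673 lay downstream of it. No sequence was used here, and 0 of the 614 host identifiers matched the table of gene names, so host genes are given by position, with 4 of their identifiers.

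Peaks in the intron of single-intron genes had a median score near that of first-intron peaks in genes with more introns and above that of the other intron peaks. Their median score was 5.48 (95% exact binomial interval 4.86 to 5.98), with quartiles of 2.82 and 16.4 and a range from 1.43 to 122. First-intron peaks of genes with 2 or more introns had a median of 5.26 (4.996 to 5.48, n = 2016). Inner and last intron peaks of such genes had a median of 3.58 (3.22 to 3.64, n = 4433), and its interval did not overlap that of single-intron genes. The median of single-intron genes exceeded that of first introns by 0.216, with an interval of -0.620 to 0.983 from the ends of both intervals, and that of inner and last introns by 1.90 (1.22 to 2.76). On 19 of 19 numbered chromosomes the median for single-intron genes was above that of inner and last introns. It was above that of first introns on 10 chromosomes and below it on 8. All intervals treat peaks as independent, cover counting error only and describe this list. With 1 library in each group there was no replicate error, and no test between groups of peaks was run.

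**Figure D1:**
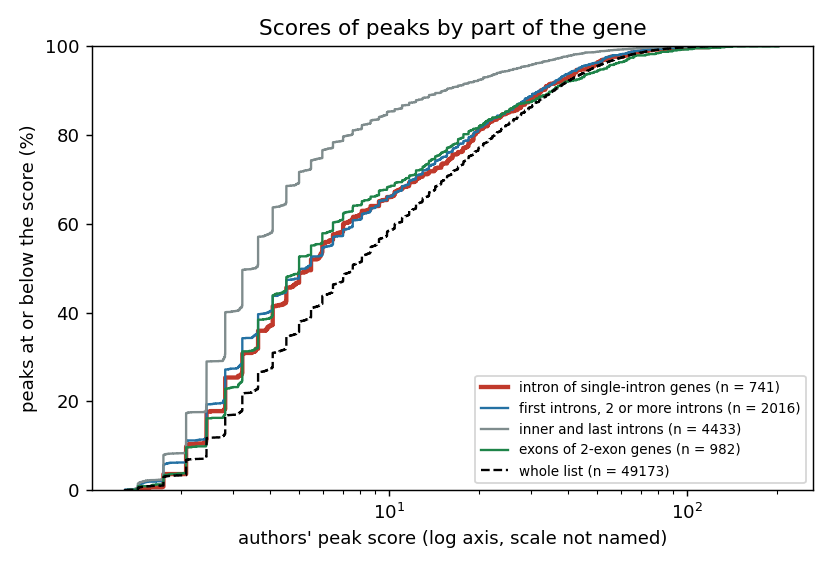
Cumulative share of peaks (y axis, %) at or below each of the authors' peak scores (x axis, log scale) for 5 sets of peaks. The curve for the intron of single-intron genes (red) runs close to those of first introns and of exons of 2-exon genes, to the right of inner and last introns, which reach a quartile of 5.98 where single-intron genes reach 16.4.

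These intron peaks were weighted toward the low end of the list. Of the 741 peaks, 266 fell in the lowest-scoring quartile group, or 35.9% (95% Wilson interval 32.5 to 39.4%), against 26.6% of the whole list. A further 162 fell in the highest-scoring group, or 21.9% (19.0 to 25.0%), against 24.9% of the whole list. The interval at the low end lay above the list's share, while that at the high end included it. The third group, between scores of 7.58 and 18.5, held the fewest, with 125 peaks. The highest-scoring share was 20.6% (18.9 to 22.5%) in first introns and 8.23% (7.46 to 9.08%) in inner and last introns.

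Peak length followed the same order. The median length was 471 bp (439 to 513 bp) in single-intron genes, against 461 bp (443 to 480 bp) in first introns and 365 bp (356 to 375 bp) in inner and last introns. Peaks of 3 kb or more numbered 25, or 3.37% (2.30 to 4.93%), against 2.44% of the whole list. Within strata of peak length the score of single-intron genes exceeded that of inner and last introns by 2.61. That value is a weighted mean of differences of medians within strata, without an interval. The plain difference of medians was 1.90. The part of length in it was not tested.

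Exons of the same kind of gene gave a further comparison. The 982 exon peaks of genes with 2 exons had a median score of 4.996 (4.53 to 5.48), which overlaps the interval of the introns between them. Exon 1 peaks had a median of 6.72 (5.48 to 7.59, n = 443) and exon 2 peaks 4.53 (4.08 to 4.79, n = 539). The intron median of 5.48 thus stood between them, in the order of their positions along the gene. Its interval of 4.86 to 5.98 overlaps that of exon 1 and not that of exon 2. The share of peaks that spanned the TSS of their nearest gene fell in the same order, with 56.2%, 17.0% and 9.46%. Intron peaks lay a median of 1272 bp from the TSS of their host, against 315 bp for exon 1 and 1598 bp for exon 2. Place in the gene, distance to the TSS and spanning of the TSS are tied here and cannot be told apart.

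Over all peaks, spanning the TSS or not, the median score was high near the TSS, low from 500 bp to 5 kb and high again beyond. Within 500 bp of the TSS of their host, 109 peaks had a median score of 8.12 (5.98 to 13.0). From 500 bp to 5 kb, 523 peaks had a median of 4.53 (4.08 to 5.29). At 5 kb or more, 41 peaks had a median of 11.7 (6.33 to 19.7), and its interval did not overlap that of the middle window. The share in the highest-scoring quartile group was 32.1% (24.1 to 41.4%), 18.7% (15.6 to 22.3%) and 36.6% (23.6 to 51.9%) in the same order of distance. Each window is over peaks whose host is also the nearest gene. The TSS was spanned by 76 of the 109 near peaks, 49 of the 523 middle ones and 0 of the 41 far ones. The part of spanning peaks in the high near median was not tested. The windows were chosen after the values were seen. The far median exceeded the middle one by 7.17 (1.03 to 15.6), but by 2.83 (0.466 to 6.38) with the border at 3 kb. With peaks above the lowest-scoring quartile group alone, the excess was 7.80 with an interval of -1.84 to 17.8, which includes 0.

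First introns of genes with 2 or more introns also had their lowest median in the middle window. Their highest median was near the TSS and that of single-intron genes far from it, but near and far intervals overlapped in each. Of the 537 near peaks in these first introns, 398 spanned the TSS. Inner and last introns had nearly equal medians in the middle and far windows. First-intron peaks of genes with 2 or more introns had medians of 10.9 (9.26 to 12.3, n = 537), 4.08 (3.64 to 4.08, n = 1336) and 9.90 (5.90 to 13.0, n = 84) in the same windows. Inner and last introns stood at 6.11 (4.28 to 11.1, n = 53), 3.63 (3.22 to 3.64, n = 2586) and 3.64 (3.22 to 3.85, n = 614). At 5 kb or more, the intervals of single-intron genes (6.33 to 19.7) and of inner and last introns (3.22 to 3.85) did not overlap. Intergenic peaks from 5 to 10 kb upstream of their nearest TSS had a median of 9.85 (9.26 to 10.5, n = 2258), within the interval of 5.98 to 19.2 around the 10.5 of the 32 peaks from 5 to 10 kb into a single-intron gene. The median length of peaks in single-intron genes was 508 bp at 5 kb or more, against 450 bp in the middle window. At 5 kb or more it was 404 bp in first introns and 323.5 bp in inner and last introns.

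**Figure D2:**
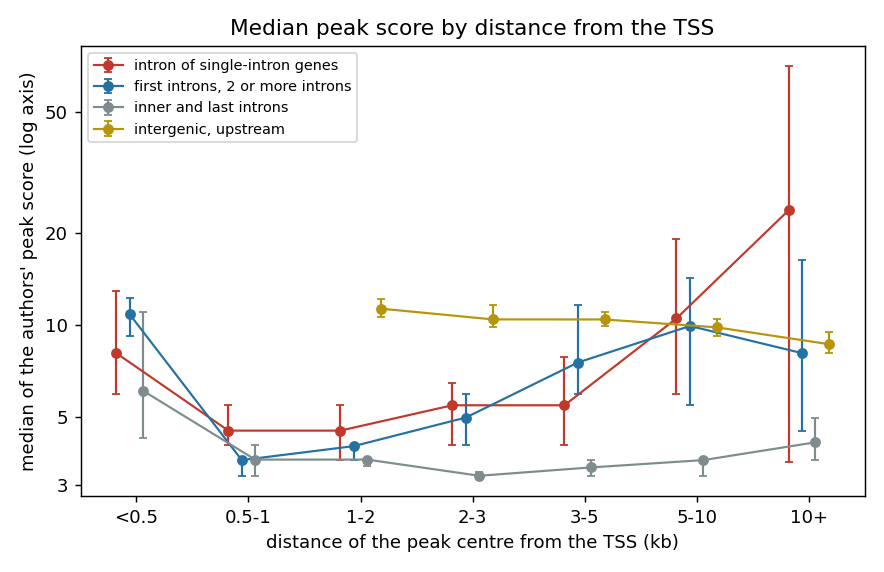
Median of the authors' peak score (y axis, log scale) by distance of the peak centre from the TSS (x axis, kb) with 95% exact binomial intervals as bars. Distance is to the host gene's TSS for introns and to the nearest TSS for upstream intergenic peaks, which begin at 1 kb. Single-intron genes (red) dip to 4.53 from 0.5 to 2 kb and reach 10.5 from 5 to 10 kb, while inner and last introns (grey) stay between 3.22 and 4.15 beyond 0.5 kb. The farthest red point rests on 9 peaks.

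The median score of first-intron peaks in single-intron genes was not set apart from that in genes with more introns. The median score was 5.48 with 1 intron, 5.48 (4.53 to 6.46, n = 495) with 2 introns, 4.996 (4.32 to 5.98, n = 322) with 3 and 4.53 (3.64 to 5.98, n = 245) with 4. Across genes with 5 to 9 introns it lay between 5.45 and 5.98, and with 10 or more it was 4.53 (4.06 to 5.98, n = 288). Each of these intervals overlaps that of single-intron genes. Distance did change with intron number: first-intron peaks lay a median of 1272 bp from the TSS with 1 intron, 1111 bp with 2 and 846 bp with 10 or more. From 500 bp to 5 kb alone, the median was 4.53 with 1 intron and between 3.64 and 4.53 with more.

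**Figure D3:**
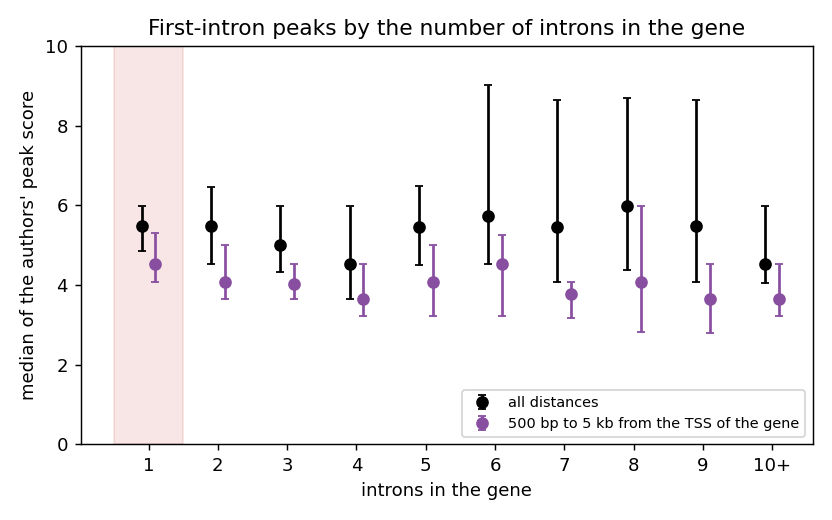
Median of the authors' score of first-intron peaks (y axis) by the number of introns in the gene (x axis), with 95% exact binomial intervals as bars. Black points are all peaks and purple points are those from 500 bp to 5 kb from the TSS of the gene. Single-intron genes (shaded) stand at 5.48 and 4.53, and their bars overlap those of each other class at all distances.

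Some intron peaks reached back over the TSS. A peak spanned the TSS of its nearest gene in 126 of 741 cases, or 17.0% (14.5 to 19.9%), against 25.3% of the whole list. The share was 24.3% (22.5 to 26.2%) in first introns of genes with 2 or more introns. These 126 peaks had a median score of 27.8 (20.0 to 31.1) and a median length of 1540.5 bp. The other 615 had a median score of 4.53 (4.08 to 4.89) and a median length of 403 bp. Of the 162 highest-scoring peaks, 78 spanned a TSS, so the class intron does not describe their whole extent. A longer peak is by itself more likely to span a TSS. Without the spanning peaks the median stood 0.888 above that of first introns, with an interval from 0 to 1.25, and 1.305 (0.494 to 1.66) above that of inner and last introns.

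Host genes could also have a peak in the promoter, which the list defines around the TSS. Of the 614 host genes, 267 had a promoter peak, or 43.5% (39.6 to 47.4%). The share over all genes was not calculated, so this is not an enrichment. A peak at the transcription termination site (TTS) was present in 170 (27.7%) and an exon peak in 141 (23.0%), with exon 1 in 64 genes and exon 2 in 89. The promoter share was 46.4% (44.1 to 48.7%) for hosts of first-intron peaks and 61.1% (59.5 to 62.7%) for hosts of inner and last intron peaks. In the same order, the TTS share was 31.4% and 35.8%, and the exon share 30.6% and 33.8%. For 84 host genes (13.7%, 11.2 to 16.6%), the intron peak was the only one in the list, whether by annotation or by nearest TSS. That share was 13.0% (11.5 to 14.6%) for hosts of first-intron peaks, an interval that overlaps. It was 6.81% (6.02 to 7.70%) for hosts of inner and last intron peaks.

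Where a host gene had both, the promoter peak usually scored higher. Of the 126 intron peaks that spanned a TSS, with a median score of 27.8, only 12 had a host with a promoter peak. Most of them are thus not in these pairs. The highest intron peak exceeded the highest promoter peak in 55 of 267 genes, or 20.6% (16.2 to 25.9%), and equalled it in 4. The median intron score in these genes was 4.08 (3.64 to 4.53) and the median promoter score 13.6 (12.3 to 16.1). The median of the difference within a gene, intron minus promoter, was -7.63 (-10.2 to -5.42). For first introns of genes with 2 or more introns the intron peak was higher in 18.4% (15.9 to 21.2%) of 825 genes, an interval that overlaps.

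**Figure D4:**
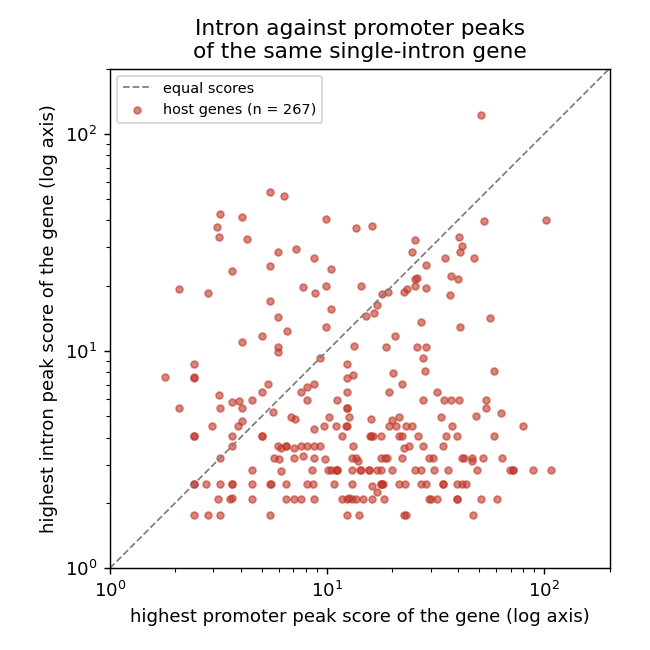
Highest intron peak score (y axis) against highest promoter peak score (x axis) of the same single-intron gene, both the authors' scores on log scales, 1 point for each of 267 genes. The dashed line marks equal scores. Most points lie below it, and 55 genes lie above.

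Over all peaks, spanning the TSS or not, intron peaks had a higher median score in host genes without a promoter peak. With the host as the nearest gene, the median score was 7.02 (5.98 to 9.26, n = 377 peaks) in hosts without a promoter peak and 4.08 (3.64 to 4.53, n = 296) in hosts with one. Peaks over the TSS were unequally shared between these hosts: 113 of the 377 spanned the TSS, against 12 of the 296. Among peaks that did not span it, the medians were 4.996 (4.53 to 5.98, n = 264) and 4.08 (3.27 to 4.53, n = 284). At 1 kb or more from the TSS and not spanning it, they were 5.90 (4.53 to 7.02) and 4.08 (3.64 to 5.01), with 193 peaks each, and the intervals overlapped. At 5 kb or more, 30 of 41 peaks were in hosts without a promoter peak, with a median of 13.96 (8.07 to 20.8), against 4.996 (3.22 to 37.2) for the 11 in hosts with one.

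First-intron peaks of genes with 2 or more introns had the same order. Their medians were 9.28 (8.64 to 11.01, n = 1064) in hosts without a promoter peak and 3.22 (3.22 to 3.64, n = 893) in hosts with one. Among those not spanning the TSS, the medians were 5.48 (4.996 to 5.98, n = 626) and 3.22 (3.22 to 3.58, n = 841). A peak that covers promoter and intron as one is counted in 1 class only. The part of such joining in this difference was not tested beyond these values.

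Of the 10 highest-scoring intron peaks, 4 reached the TSS of their host and 6 did not reach a TSS. In VIT_04s0023g01260 on chromosome 4, the peak from 17669628 to 17671175 had the highest score, 122. It was 1548 bp long, and the gene's minus-strand TSS lay at the last base of the peak. That gene also had a promoter peak of score 51.0, and it was the only one of the 10 host genes with a promoter peak. Next came VIT_18s0001g14440 on chromosome 18, with a score of 118 for a 1286 bp peak (12435346 to 12436631) centred 3033 bp downstream of its plus-strand TSS. Others that spanned the TSS of their host lay on chromosome 6 (20793994 to 20796570, score 97.3), chromosome 5 (8734628 to 8736333, 76.7) and chromosome 10 (2788859 to 2790941, 74.1).

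The remaining 5 did not reach a TSS. On chromosome 10, a peak from 7089095 to 7090340 scored 101, and its centre lay at -1871 bp, upstream of the TSS of the neighbouring gene, which was nearest. Also on chromosome 10, a peak from 3235766 to 3236950 scored 90.6 at 1488 bp from the TSS. A peak on chromosome 16 (17776595 to 17777684) scored 71.3 at 1845 bp. The other 2 lay very deep in their gene. A peak of 1945 bp on chromosome 19 (17598754 to 17600698) scored 85.7 at 24210 bp from the minus-strand TSS of VIT_19s0093g00540, the farthest of all 673. On chromosome 5, a peak from 3374502 to 3375616 scored 70.3 at 13166 bp.

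At 10 kb or more from the TSS of their host, 5 of 9 peaks were in the highest-scoring quartile group, or 55.6% (26.7 to 81.1%). At 5 kb or more it was 15 of 41 peaks, and in the whole list 24.9%. Of the 5 peaks farthest from the TSS of their host, 4 were in that group. The remaining one, on chromosome 5 (16583776 to 16583992), lay 19168 bp from the TSS, scored 1.74 and was 217 bp long. The other 2 lay on chromosome 19 (3168353 to 3168998, score 23.8, 14465 bp away) and chromosome 14 (2134185 to 2135603, score 41.7, 13491 bp away).

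The 5 longest intron peaks all spanned the TSS of their host and were in the highest-scoring quartile group. They ran for 8607 bp on chromosome 8 (18760113 to 18768719, score 31.1), 6877 bp on chromosome 14 (22464349 to 22471225, 49.2) and 6017 bp on chromosome 5 (439147 to 445163, 50.1). The others were of 5834 bp on chromosome 1 (3521091 to 3526924, 29.4) and 4840 bp on chromosome 8 (9659928 to 9664767, 42.6). None of the 5 was among the 10 highest-scoring, and 0 of the 5 host genes had a separate promoter peak.

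In 94 host genes the intron held more than 1 peak, with 221 peaks in all. Of these genes 68 had 2 peaks and 26 had 3 or more. The outermost centres lay a median of 1780 bp apart, at least 599 bp and at most 9967 bp, which gives a lower limit for the length of these introns. Spans of 5 kb or more were found in 11 introns. The median score of these peaks was 4.996 (4.53 to 6.98), against 5.48 (4.75 to 5.98) for the 520 peaks that were alone in their intron.

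The highest score in such an intron lay about as often nearest to the TSS as farthest from it. In the 82 of these genes with a recovered TSS and no tie for the highest score, it belonged to the nearest peak in 37, or 45.1% (34.8 to 55.9%), and to the farthest in 39.

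The most peaks in 1 intron were 6, in VIT_19s0014g01380 on chromosome 19. Along the plus strand their scores were 15.0 at 641 bp from the TSS, 15.0 at 1822 bp, 8.07 at 3722 bp, 4.89 at 4690 bp, 14.3 at 6789 bp and 4.43 at 8263 bp. A TTS peak of score 9.80 followed at 9085 bp, and the gene had no promoter peak. The first 2 peaks and the fifth thus scored above the other 3. On chromosome 1, 5 peaks lay between 9776972 and 9783666 in a minus-strand gene. From the TSS inward they scored 30.3 at 255 bp, 4.996 at 1471 bp, 3.21 at 3524 bp, 16.4 at 4594 bp and 51.1 at 5988 bp, so the ends of the series were high and the middle low. The 2 innermost were nearer to the TSS of the neighbouring gene.

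Only 4 introns held 4 or more peaks. On chromosome 4, 4 peaks between 19484648 and 19491023 scored 2.82 at 422 bp, 2.44 at 1451 bp, 4.08 at 2200 bp and 37.2 at 6044 bp, while the promoter peak of that gene scored 3.13. On chromosome 19, 4 peaks between 6241955 and 6245317 scored 13.0 at 213 bp and then 1.75, 1.75 and 1.496. Of the 22 introns with 3 peaks, the one with the highest-scoring peak is described. In this intron, of VIT_18s0001g14440, the peak of score 118 stood between one of 34.5 at 385 bp and one of 4.996 at 4472 bp, and an exon peak of 46.3 followed at 6336 bp.

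**Figure D5:**
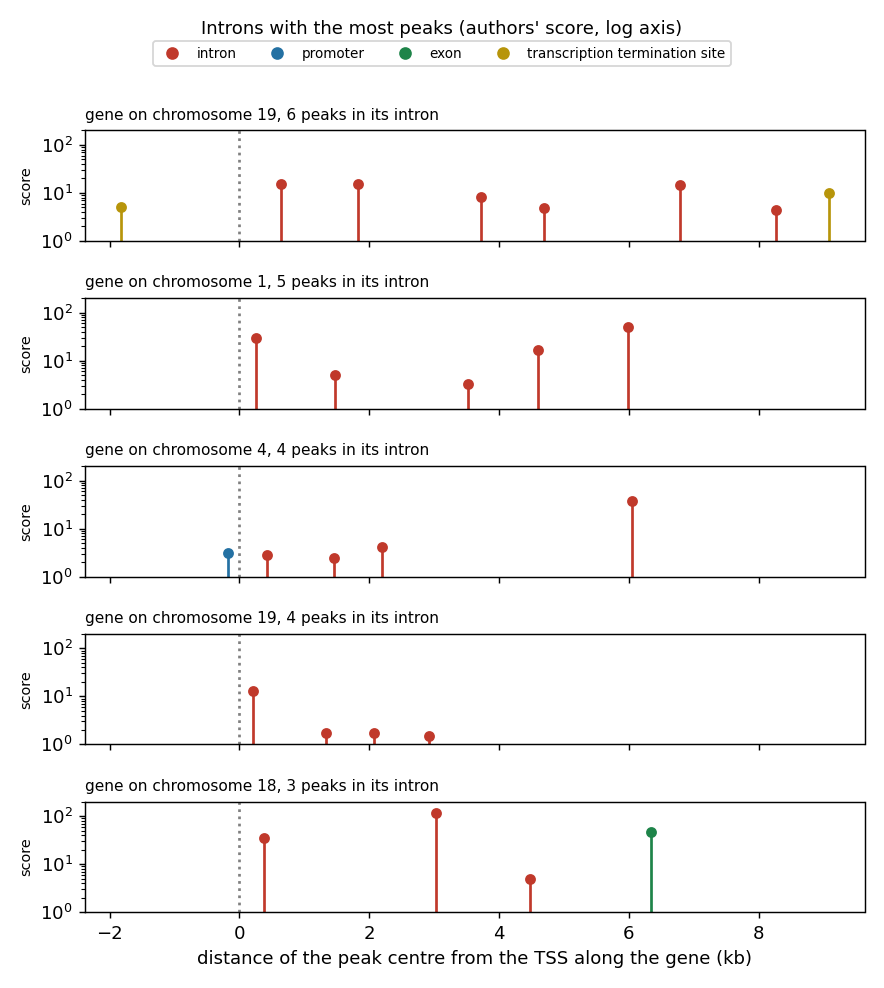
Peaks tied to 5 single-intron genes, the 4 with 4 or more intron peaks and, of the 22 with 3, the one with the highest-scoring peak, by distance of the peak centre from the TSS along the gene (x axis, kb) and the authors' score (y axis, log scale), 1 panel for each gene. Red marks intron peaks and other colours mark other classes. The TTS peak at -1830 bp in the top panel is annotated to the neighbouring gene. In 3 of the panels the highest intron peak is not the one nearest the TSS.

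For 68 peaks, in 62 host genes, the nearest TSS belonged to another gene. In 56 cases the peak lay upstream of that other TSS and in 12 downstream, at a median of 2899 bp and never closer than 1169 bp. The host TSS could be recovered for 33 of them and lay a median of 4600 bp away, from 1283 to 14349 bp. Their median score was 5.24 (4.08 to 10.3), against 5.48 (4.86 to 5.98) for peaks nearest to their own host. A promoter peak was present at the nearest gene in 43 of the 68 cases. The share over all nearest genes was not calculated, so this count is not an enrichment. Assigning these peaks to their nearest TSS gives them to a gene other than the one whose intron holds them.

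Chromosome 19 held the largest share of such peaks among its intron peaks. There, 57 of 329 intron peaks were in single-intron genes, or 17.3% (13.6 to 21.8%), while the other numbered chromosomes ran from 8.05% to 12.7%. The median score on chromosome 19 was 9.39 (5.19 to 15.0), the highest of the 19 chromosomes, and the lowest was 3.86 (2.82 to 5.84) on chromosome 6. With 23 to 57 peaks on a chromosome, most of these intervals overlap. Peaks of the same intron were counted separately. On chromosome 19, VIT_19s0014g01380 alone held 6 of the 57 peaks, and another intron held 4. The part of introns with several peaks in this share and median was not tested. The number of single-intron genes on each chromosome was not used here, so the shares are not enrichments. In all, 712 peaks lay on numbered chromosomes, 24 on Un and 5 on random sequences, as the list names them.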

How the data were processed

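The authors deposited 1 peak list, named for FLAG against input; how the anti-FLAG library and the control entered the peak call was not given in the sources used here. The submitters' processing notes name BWA, MACS2 and HOMER. Roles, versions, settings, genome build and gene models were likewise not given. The deposited peak score is the authors' own value on an unnamed scale. Distances, in bp from the peak centre to the nearest TSS, and classes are as deposited. No read counts were used, so depth is unknown.

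Classes were parsed from the annotation text. Peak length counts both end positions. A peak spans a TSS where the distance is at most its length divided by 2. Quartile groups were cut on the whole list. TSS position and strand were recovered for 12847 genes whose peaks fitted 1 TSS within 1 bp. Medians carry 95% exact binomial order-statistic intervals and shares 95% Wilson intervals; the functions were tested on simulated data. Length strata were 10 groups of the whole list. Named peaks were the 10 highest-scoring, the 5 longest, the 5 farthest from the TSS of their host and those in the 5 introns with the most peaks, ties broken by the highest score. The peaks, comparisons and rules were chosen with earlier results of these data known. Python 3.11.15, scipy 1.17.1, pandas 2.3.3, matplotlib 3.10.9 and numpy 2.4.6 were used.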

Additional observations from a re-analysis of the deposited data

How the results depend on the processing

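Of 33 alternative values for 11 results, 27 stayed within the interval of the reported value and 6 moved beyond it. Of these, 1 changed sign, from a reported difference whose interval includes 0. With peaks above the lowest-scoring quartile group alone, the median score was 11.1, the median length 697 bp and the difference from first introns -0.888, against 0.216 for all; that subset leaves out low scores by construction. The share in the longest quartile group was 26.0%, against 21.9% in the highest-scoring one. Promoter peaks above the lowest-scoring group were present in 38.3% of host genes. Among peaks not spanning the TSS, the score difference between hosts without and with a promoter peak was 0.920 (0 to 2.71). For all peaks it was 2.94 (1.45 to 5.62). For peaks 1 kb or more from the TSS and not spanning it, the difference was 1.82 (-0.486 to 3.38), an interval that includes 0. The cause was not tested. The excess of peaks 5 kb or more from the TSS over the middle window was 7.17 (1.03 to 15.6). Its alternative values ran from 2.83 with a border at 3 kb to 10.5 within strata of peak length. The comparisons by promoter peak and beyond 5 kb, and the settings without spanning peaks, were chosen after seeing the data. No paired analysis was possible because there was only 1 library of each kind, so no replicate could be left out. Library depth is unknown, so its effect on low-scoring peaks was not tested.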
